A study of Sus scrofa with 8 samples.

Results

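Of the 5605 genes that the deposited pig annotation typed as long noncoding RNA (lncRNA), 1318 (23.5%) had a span at least 50 kb from the span of every protein-coding gene on the same sequence. They are called far lncRNAs here. They were chosen by biotype and by distance, the number of bases between the 2 spans, so the distance itself is a description and not a finding. Another 2402 lncRNA genes lay under 50 kb from a coding gene without touching one, and 1885 overlapped the span of a coding gene. The annotation held 30364 gene entries, 20679 of them protein coding.

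The annotation served as the mapping reference for single-cell RNA sequencing of tracheal submucosal glands (SMGs), the mucus- and fluid-secreting glands under the airway surface. The glands were dissected from newborn pigs, 4 wild-type (WT1 to WT4) and 4 CFTR-/- (CF1 to CF4). CFTR is the anion channel lost in cystic fibrosis, and these pigs carry no other allele or treatment in the labels. The 8 libraries shared 1 annotation, which holds no value per animal, so WT and CFTR-/- glands were not compared, the levels of the far lncRNAs in gland cells were not analysed here and the depth of the libraries is unknown. Every value below describes gene models on build Sscrofa11.1. Genes are not replicates, so classes of genes are set side by side without a test.

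A lncRNA is a transcript, often spliced and polyadenylated, without a long conserved reading frame. Many are transcribed at low levels and in few tissues. Some carry microRNAs in their introns, some act on genes beside them, and for most no role is known. Droplet libraries of the kind used here read the stretch next to the poly(A) tail, so the model of the 3′ end decides which reads a lncRNA can collect.

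Of the 1318 far lncRNAs, 6 overlapped a microRNA gene, none of them through exon bases, and 0 overlapped a small nucleolar RNA gene. The mature sequences below are shown because the seed of a microRNA is the part that pairs with its targets. They are RefSeq sequences on Sscrofa11.1, written 5′ to 3′, and capitals mark the seed, bases 2 to 8.
ssc-miR-365-3p: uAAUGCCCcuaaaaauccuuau
ssc-miR-135: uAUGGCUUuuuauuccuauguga
ssc-miR-184: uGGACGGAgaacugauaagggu
ssc-miR-125b: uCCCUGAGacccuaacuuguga
ssc-miR-9799-3p: cAUUGCUUugaucgucuggc
ssc-miR-9859-3p: uUGAAAAGgaucgguuggaagacu
The 6 seeds all differed from each other. The first 5 microRNAs lay on the strand of their lncRNA and the sixth on the opposite strand.

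The lncRNAs around or opposite these microRNAs were unlike each other in structure. LOC110259927 (chr3:28907959-28912005, minus strand), around MIR365-1, had 2 exons and 260 spliced bases and lay 52752 bp from MKL2. LOC100514051 (chr5:86094295-86240246, minus strand), around MIR135-2, had 17 exons, 37 isoforms and 33891 spliced bases, and the microRNA sat in an intron of each of its 37 transcripts. In human, a microRNA of the miR-135 family lies inside RMST, a lncRNA of neural development. LOC106507693 (chr7:48340823-48349334, plus strand), around MIR184, had 3 exons and 3422 spliced bases between RASGRF1 and ANKRD34C. LOC106504205 (chr9:49098669-49122513, minus strand), around MIR125B-1, had 2 exons and 15373 spliced bases, with SORL1 444998 bp to its left. In human this microRNA lies inside MIR100HG, a lncRNA that hosts several microRNAs. LOC110257260 (chr16:36640197-36771176, plus strand) held MIR9799 in an intron of 1 of its 2 transcripts. LOC102166369 (chrX:40593019-40681904, minus strand) lay opposite MIR9859.

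Splice sites were almost uniform. Of 4271 introns in far lncRNAs, 4270 (99.98%) began with GT and ended with AG. The boundaries of LOC110261441, the far lncRNA most distant from coding genes, are shown as the usual form, 20 bases across each exon-intron boundary with the first or last 2 intron bases in capitals.
intron 1 start, chr6:123595975-123595994, minus strand: ctacttaaagGTattgtctc
intron 1 end, chr6:123563421-123563440, minus strand: tattttctAGgatgatccat
intron 2 start, chr6:123563339-123563358, minus strand: tgccatgaagGTgggtaata
intron 2 end, chr6:123558171-123558190, minus strand: gtccttttAGgaagaggaaa
The exception was an intron of 7851 bp in C6H1orf185 (chr6:161090687-161098537, minus strand), which ran from GT to AT. Its first and last 12 bases are shown for contrast.
first 12 bases: GTgagttagcta
last 12 bases: actctccttaAT
Among lncRNAs under 50 kb from a coding gene, 7474 of 7488 introns (99.8%) were GT-AG, and among those overlapping a coding gene 5461 of 5465 (99.9%). The annotation pipeline builds models from spliced alignments, so the uniformity describes the models.

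The distance of far lncRNAs to the nearest coding gene had a median of 145288 bp over the 1246 genes on sequences that hold a coding gene, with quartiles of 82607 and 286329 bp. Of the 1318, 413 (31.3%) lay 50 to 100 kb away, 470 (35.7%) 100 to 250 kb, 230 (17.5%) 250 to 500 kb and 133 (10.1%) 500 kb or more. The remaining 72 (5.46%) lay on 49 unplaced sequences with no coding gene, with a median length of 46053 bp, and their distance is not known. On most of these sequences a coding gene 50 kb away could not have been seen. These 72 had medians of 845 spliced bases, 12 RNA-seq samples and 52.0% exonic GC. Without them the median spliced length of far lncRNAs was 1795.5 bases.

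**Figure D1:**
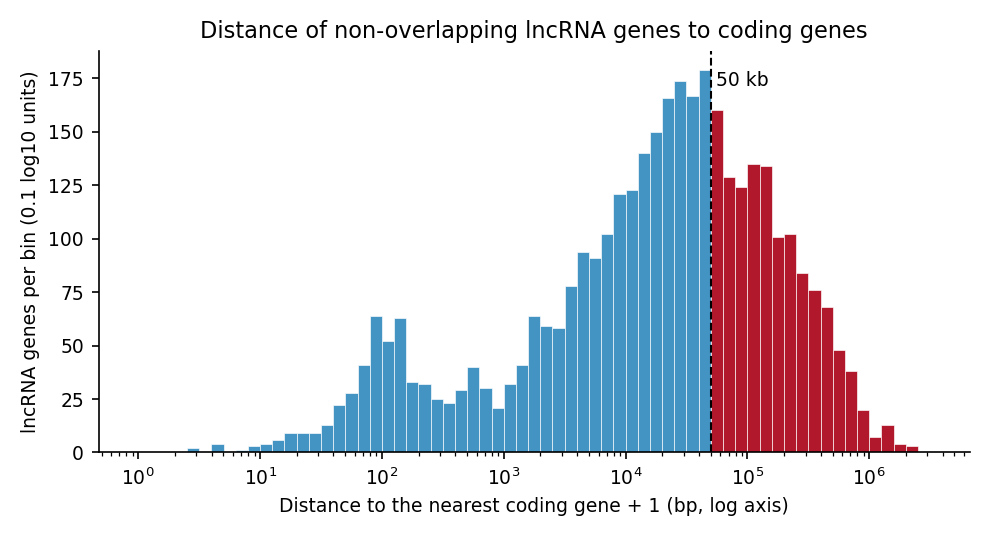
Number of non-overlapping lncRNA genes (vertical axis) in bins of 0.1 log10 units of distance to the nearest coding gene (horizontal log axis, bp), with far lncRNAs in red and the others in blue. A smaller peak lies near 100 bp, and from 1 kb on the counts rise towards 50 kb and fall beyond it without a break at the limit, while the farthest gene lies 2176903 bp away.

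No break separated genes on either side of the limit. The nearest far lncRNAs were LOC110259141 on an unplaced sequence (50345 bp), LOC106506587 (50361 bp from DLC1) and LOC110257033 (50414 bp from KYNU, kynureninase). Just outside stood LOC106504386 (49930 bp from MLN, the gut hormone motilin), LOC110255983 (49905 bp from CAVIN4, a caveola protein of muscle) and LOC110257515 (49885 bp from TMEM229A). LOC106506587 had 4 exons and 882 spliced bases and LOC106504386 had 4 exons and 1010. MEG3, an imprinted lncRNA named here after its values were seen, was no far lncRNA, since it lay 46459 bp from RTL1.

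The 10 genes farthest from coding genes sat in 6 gaps. LOC110261441 (chr6:123557956-123596215, minus strand) lay 2176903 bp from CELF4, a neuronal RNA-binding protein, and 2294382 bp from PIK3C3, a lipid kinase of autophagy. It had 3 exons, 1 isoform and 538 spliced bases. The same gap held 4 more of the 10. LOC110261199 (2173773 bp from PIK3C3) had 7566 spliced bases, LOC106507637 (2165270 bp) had 1471, LOC110261200 (1681813 bp) had 4373 and LOC106508560 (1607486 bp) had 3825. LOC110257293 on chromosome 16 lay 1620475 bp from CDH6 and 1795199 bp from CDH9, both cadherins, which are calcium-dependent adhesion proteins. LOC106506172 (chromosome 15, 1598650 bp from ACVR2A, an activin receptor), LOC102162681 (chromosome 8, 1576538 bp from PCDH7, a protocadherin), LOC110256467 (chromosome 13, 1507691 bp from NCAM2, a neural adhesion molecule) and LOC102163689 (chromosome 8, 1444453 bp from PABPC4L) completed the 10. Of these 10, 9 had 3 exons and 1 had 6.

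Far lncRNAs were short, few-exon genes in long spans. Exon number, taken from the transcript with most exons, had a median of 3 (quartiles 3 and 4, highest 18). The counts were 194 genes (14.7%) with 2 exons, 617 (46.8%) with 3, 240 (18.2%) with 4 and 267 (20.3%) with 5 or more, and 0 genes had 1 exon. A model with 2 exons was found in 14.7% of far lncRNAs, 23.1% of lncRNAs under 50 kb away and 36.0% of those overlapping a coding gene. Models with 1 exon made up 0.0416% of lncRNAs under 50 kb away and 0.106% of overlapping ones. Coding genes had a median of 8 exons and 10.0% had 1. These shares were not tested against each other.

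The exon-rich end of the distribution was small, with 17 far lncRNAs (1.29%) at 10 or more exons. LOC102160458 (chr5:85472011-86041585, plus strand) led with 18 exons and 6692 spliced bases over 569575 bp between TMPO, a protein of the nuclear lamina, and NEDD1, a centrosome protein. LOC100514051, the microRNA host with 17 exons, lay in the same gap on the other strand. LOC110255677 (chromosome 10) and LOC110260952 (chromosome 6, 142778 bp from IRX5, a homeobox transcription factor) had 14 exons each and LOC106505220 (chromosome 10) had 12. LOC106505220 lay 277490 bp from ADARB2, an RNA-editing family member. For LOC102160458 and LOC110255677 the annotation stated no number of RNA-seq samples that support every intron.

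Spliced length, the exon bases of the longest transcript, had a median of 1734 (quartiles 873.5 and 3457.5). The median was 1785.5 for lncRNAs under 50 kb away, 1933 for overlapping ones and 2921 for coding genes. Under 500 bases were 136 far lncRNAs (10.3%) and over 10000 bases were 44 (3.34%). LOC110261655 (chr7:17252372-17296143, minus strand) was the longest with 40633 spliced bases in 2 exons. It lay 155223 bp from PRL and 356883 bp from SOX4, and no number of RNA-seq samples that support every intron was stated for it. LOC110257572 (34975 bases, 3 exons, near KLF14), LOC100514051 (33891), LOC110255466 (27910) and LOC106504593 (25954, 166144 bp from QDPR) followed. The shortest were LOC102161945 (165 bases, 2 exons, 90071 bp from CDC42EP3), LOC110257918 on Y (167), LOC110259783 (169), LOC110258567 (171) and LOC110258495 (179). LOC110257918 had 84.4% of its exon bases soft-masked as repeats, against a median of 15.8% over far lncRNAs.

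Spans of far lncRNAs were long. They had a median of 20588.5 bp, against 10870 bp under 50 kb away, 10499 bp in overlapping lncRNAs and 19158 bp in coding genes. The median intron was 4691 bp, against 2668.5 and 2924 bp in the other 2 classes. A span over 100 kb was found in 231 far lncRNAs (17.5%), 6.66% of lncRNAs under 50 kb away and 14.1% of coding genes. A gene far from coding genes needs a long gap, in which a long span has room, so the rule and the span are not independent. LOC102160854 (chr9:14678048-15984452, minus strand) ran over 1306405 bp with 6 exons and 7982 spliced bases between TENM4, a teneurin of neuronal wiring, and FAM181B. LOC110260236 (911564 bp, between TRPS1 and CSMD3), LOC110255677 (793233 bp), LOC106504343 (699971 bp) and LOC110260376 (655655 bp) were next.

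Most far lncRNAs had 1 isoform. The transcripts numbered 2138, and 913 genes (69.3%) had 1 exon chain, 240 had 2, 89 had 3 and 40 (3.03%) had 5 or more. The share with 2 or more was 30.7%, against 29.5% under 50 kb away, 28.8% in overlapping lncRNAs and 50.5% in coding genes. LOC100514051 had 37, LOC102162054 (chromosome 1, 111775 bp from LOC110256380) had 20, LOC106505220 had 17, LOC102165284 (128160 bp from CDH20) had 16 and LOC106507559 (between TBC1D32 and MAN1A1) had 13.

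**Figure D2:**
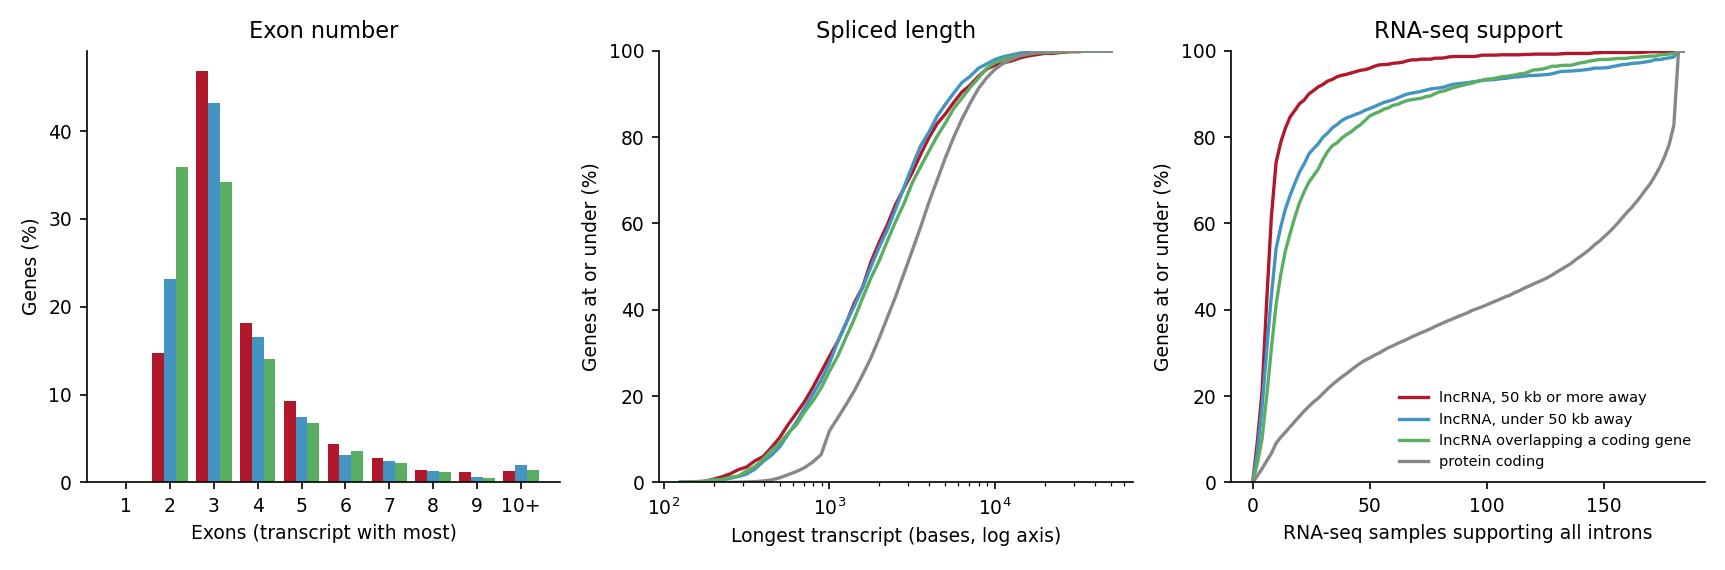
Exon number (left, percent of genes, bars), spliced length of the longest transcript (middle, cumulative percent, log axis in bases) and number of RNA-seq samples supporting all introns (right, cumulative percent) by gene class, where each curve is 1 class. The right panel covers only genes with a stated number of samples, which is 72.0% of coding genes. Spliced lengths of the 3 lncRNA classes lie close together (medians 1734, 1785.5 and 1933), while the RNA-seq support of far lncRNAs (median 7) is the lowest of the 4 classes shown.

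All 2138 transcripts of far lncRNAs were predicted and 0 were curated RefSeq records, while all lncRNA genes together had 9 curated transcripts. The exons of all 1318 genes were identical to those in the RefSeq annotation that the authors started from. The same held for all 5605 lncRNA genes, so the authors' edits left these exons as they were. The evidence text of the models, written by NCBI from public pig RNA-seq and not from these glands, stated how many RNA-seq samples supported every intron for 1279 of the 1318. A number was stated for 98.3% of lncRNAs under 50 kb away and 97.9% of overlapping ones, but for only 72.0% of coding genes (14889 of 20679). Sample medians and shares cover only genes with a stated number. The median was 7 samples (quartiles 5 and 11), against 9 for lncRNAs under 50 kb away, 13 for overlapping ones and 134 for coding genes. Support by 50 or more samples was stated for 54 of 1279 far lncRNAs (4.22%). The share was 13.5% for lncRNAs under 50 kb away and 71.4% for coding genes (10625 of 14889). Expressed sequence tags supported 278 far lncRNAs (21.1%) and long reads 178 (13.5%), against 33.5% and 22.4% under 50 kb away.

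The 5 far lncRNAs with most RNA-seq samples had 167 to 182. SEM1 (chr9:76324550-76349261, minus strand) and LOC110258202, on an unplaced sequence, had 182 each, the highest number in the annotation. CD99 (chrY:5946851-5983610, plus strand) had 178, LOC106506288 (chr15:90309791-90323809, minus strand) had 170 and LOC102162054 had 167. LOC106506288 had 183 spliced bases and a longest reading frame of 11 codons, and LOC110258202 had 242 bases and 9 codons.

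The 3′ ends of the 5 best supported models are shown, since a 3′ library reads beside them. Of the 6 far lncRNAs that overlapped a microRNA gene, the 2 with a poly(A) signal are shown too. Each is 30 bases, either around the last poly(A) signal (AATAAA or ATTAAA, in capitals, the hexamer that directs cleavage and polyadenylation) or, where none was found in the last 50 bases, the end itself.
SEM1, chr9:76324567-76324596, minus strand: tgtaacacaaaaAATAAAtgtttgatctaa
CD99, chrY:5983573-5983602, plus strand: caatacccatttAATAAAtgtgaactctca
LOC106504205, chr9:49098680-49098709, minus strand: cctgaaccccccAATAAAagcactgttgca
LOC110259927, chr3:28907964-28907993, minus strand: accaccccgaaaAATAAAaagatgccctcc
LOC106506288, chr15:90309791-90309820, minus strand: atagagttaaagtggaatcatatgattagg
LOC102162054, chr1:269607424-269607453, plus strand: aaagaataacatttttctctatttacaaaa
LOC110258202, unplaced sequence, plus strand: taaagaatataaagagaaacatctctcttt
In SEM1 the hexamer began 35 bases from the end, in LOC106504205 29, in CD99 26 and in LOC110259927 23, counting both ends. LOC110258202, LOC106506288 and LOC102162054, with 182, 170 and 167 samples, showed neither hexamer, and A-rich genomic sequence followed the end of LOC110258202. The other 4 that overlapped a microRNA gene, LOC100514051, LOC106507693, LOC110257260 and LOC102166369, also showed neither hexamer.

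Over all far lncRNAs, 303 of 1318 (23.0%) had either hexamer in the last 50 bases of the transcript that ends farthest 3′. A window of 50 genomic bases that ended 500 bases upstream held one in 7.97%. This window was not spliced and can lie in an intron, so it is no matched background. The share was 27.7% under 50 kb away, 25.2% in overlapping lncRNAs and 60.7% in coding genes, with 4.79%, 5.20% and 4.37% in the window upstream. Where present, the hexamer began a median of 23 bases from the end (quartiles 18 and 28). A-rich genomic sequence within 20 bases after the end (6 A in a row, or 7 A of 10), which an oligo-dT primer could bind, followed 115 far lncRNAs (8.73%), against 8.08%, 11.2% and 5.18% in the other 3 classes. With 6 A in a row alone the shares were 2.43%, against 3.25%, 5.41% and 2.06%, so the order of far lncRNAs and those under 50 kb away turned. Neither feature was found in 920 (69.8%).

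**Figure D3:**
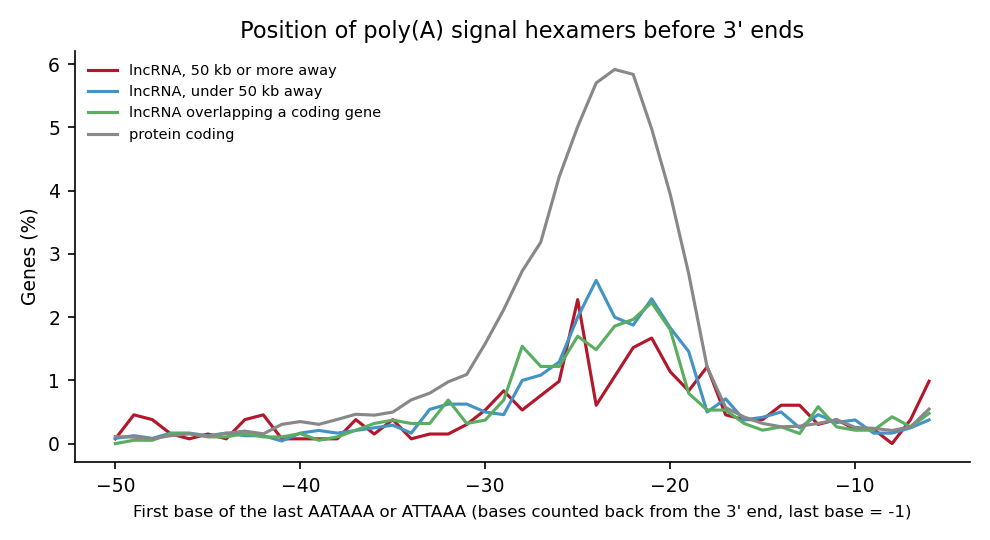
Percent of genes (vertical axis) whose last AATAAA or ATTAAA in the final 50 bases begins at each position before the 3′ end (horizontal axis, bases counted back from the end), 1 line per gene class. The coding genes peak near 23 bases from the end, and the far lncRNAs, of which 23.0% have a hexamer at any position, stay well below them there.

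The reading frames of far lncRNAs were short, with a median of 73 codons from ATG to stop in the longest transcript (79 in both other lncRNA classes, 392 in coding genes). At least 200 codons were found in 16 (1.21%), against 3.66% under 50 kb away, 2.60% in overlapping lncRNAs and 85.8% in coding genes. A gene symbol in place of a LOC number was carried by 3 far lncRNAs (0.228%). The share was 2.00% under 50 kb away and 0.424% in overlapping lncRNAs. All 3 symbols belong to genes known to encode proteins. C6H1orf185, named after a human open reading frame, had the longest frame at 385 codons, in 7 exons between RNF11 and CDKN2C. CD99, which in human encodes a cell-surface glycoprotein, had 213 codons, 10 exons and 4 isoforms. SEM1, which encodes a small subunit of the proteasome lid, had 70 codons in 3 exons and 506 spliced bases. The annotation also held a coding SEM1 entry of 1 exon and 429 bases (chr13:144628949-144629377, plus strand), and the 210 bases of the 2 reading frames differed at 2 positions. Reads of SEM1 could therefore match both entries, and a count for either is uncertain. Other far lncRNAs with long frames included LOC110257297 (277 codons, between IRX2 and IRX4).

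Promoters rich in CpG were rare. In the 1000 bases around the start, 53 of 1314 far lncRNAs (4.03%) had an observed to expected CpG ratio of at least 0.6 and a GC content of at least 50%. The share was 22.4% for lncRNAs under 50 kb away, 25.1% for overlapping ones and 51.8% for coding genes. In the window of 250 bases before to 50 after the start it was 9.13% in far lncRNAs, against 27.9%, 29.5% and 48.8%. By distance it went from 62.0% within 1 kb of a coding gene to 14.7% at 1 to 5 kb, 9.81% at 5 to 10 kb and 8.74% at 10 to 50 kb. Among far lncRNAs it was 5.33% at 50 to 100 kb, 2.57% at 100 to 250 kb, 4.35% at 250 to 500 kb and 3.79% beyond. Within 1 kb a window around the start can reach into the promoter of the coding gene. SEM1, CD99 and C6H1orf185 were among the 53, as was LOC106507637 in the CELF4 to PIK3C3 gap.

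GC content was lower at greater distance, in the exons and in the surroundings alike. Exons of far lncRNAs had a median GC of 43.9%, against 47.9% under 50 kb away and 51.0% in coding genes. The 10 kb on each side had a median of 40.7%, against 45.3% and 45.2%. From 50 to 100 kb to 500 kb and beyond, the exonic median went from 45.1% to 39.3% and the surrounding one from 42.6% to 36.0%. The 2 medians are drawn from the same loci and were not tested.

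**Figure D4:**
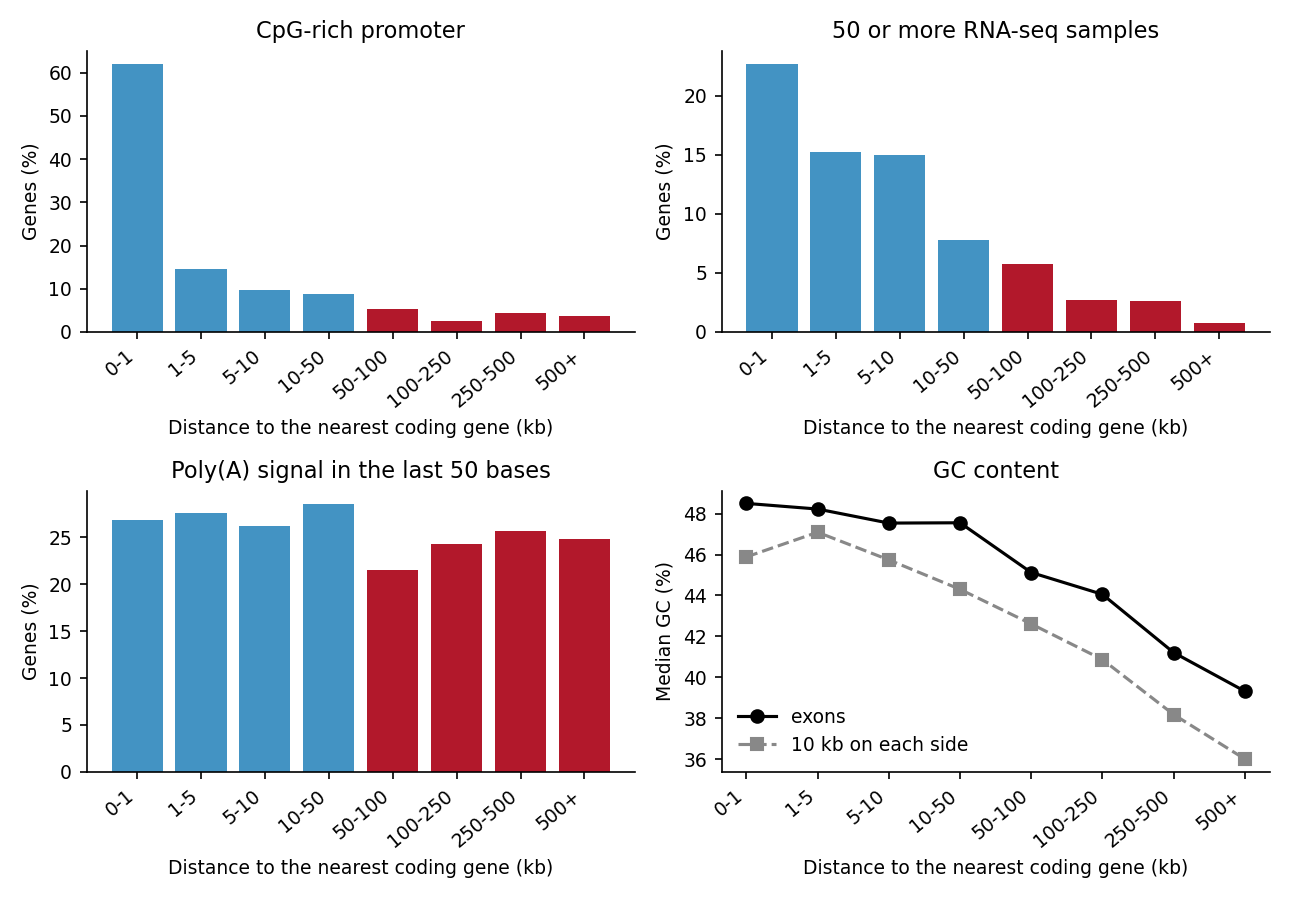
Measures of non-overlapping lncRNA genes in 8 classes of distance to the nearest coding gene (horizontal axes, kb), with far lncRNAs in red: percent with a CpG-rich promoter, percent with 50 or more RNA-seq samples, percent with a poly(A) signal, and median GC of exons and of 10 kb on each side. CpG-rich promoters go from 62.0% within 1 kb to 3.79% beyond 500 kb, while the poly(A) share stays between 21.5% and 28.6%.

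Far lncRNAs lay on every chromosome. Per megabase there were 0.502 over the chromosomes, from 0.179 on chromosome 12, which has 18.2 coding genes per megabase, to 0.764 on chromosome 10, which has 5.80. The order did not hold throughout, since chromosome 7, with 10.7 coding genes per megabase, had 0.616 and chromosome 15, with 5.28, had 0.413. The distance rule also ties far lncRNAs to places with few coding genes. Chromosome 1 held most (121), followed by 13 (101) and 4 (84). Of all lncRNA genes, 5.05% on chromosome 12, 32.4% on chromosome 11 and 65.5% on Y (19 of 29) were far from coding genes. Another 95 lay on 56 unplaced sequences.

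Most genes with near-identical copies lay on Y and on the unplaced sequences. A gene was compared with all others by the 50-base words of its longest transcript. Of the far lncRNAs, 65 (4.93%) shared at least 50% of their words with another gene, comprising 46 of 95 on unplaced sequences, 8 of 19 on Y and 11 of 1204 on the other chromosomes. For example, LOC110258567 and LOC110258495 shared 100% of their words with LOC110258913 and LOC100518090. Nearly all words (at least 95%) were shared by 26 of the 65. Reads from the shared stretches cannot be told apart, so counts for these genes would be uncertain to that extent. Of the far lncRNAs, 2 had a symbol with a copy suffix.

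Another lncRNA gene lay within 50 kb of 632 (48.0%), and 198 (15.0%) overlapped one, 168 of them on the opposite strand. A pseudogene overlapped 28, a tRNA gene 2, and 4 overlapped a V segment of an immune receptor locus. A V or C segment lay within 50 kb of 9. Such segments are not typed as protein coding, so they did not count for the distance. No far lncRNA shared exon bases with another gene on its own strand and 66 (5.01%) shared some with a gene on the opposite strand. Starts within 1000 bp of each other and facing apart were found in 17 pairs of lncRNA genes, covering 29 far lncRNAs. SEM1 and LOC102167654 were the closest such pair, with 23 bases between their starts, and LOC102165993 and LOC102165790, beside SOX9, had 88.

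Flanking coding genes were known on both sides for 1223 far lncRNAs, which filled 678 gaps. A gap held 1 far lncRNA in 378 cases, 2 in 167, 3 in 76 and 4 or more in 57, so 845 (69.1%) shared their gap with another and are not independent places in the genome. The gaps had a median of 590830 bp. Of the 2439 gaps over 100000 bp, 27.8% held a far lncRNA, and of the 226 over 1 Mb, 181 (80.1%) did. Long gaps without one had a median of 172394 bp.

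The fullest gap ran between SLITRK5, a neuronal adhesion protein, and GPC5, a glypican (chr11:57800853-60790999, 2990147 bp), with 9 far lncRNAs. The 3 nearest to SLITRK5 were on the plus strand and the other 6 on the minus strand. LOC102164643 had most exons there (8, with 4 isoforms over 238359 bp), LOC102165694 had 7 and LOC110255771 had 240 spliced bases spread over 207056 bp. Spliced lengths ran from 240 to 2684 bases and RNA-seq support from 3 to 15 samples.

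The gap between PKN2, a protein kinase, and LMO4, a LIM-domain transcriptional regulator (chr4:127709983-128894112, 1184130 bp), held 8. Of the 8, 6 had 2 exons, and 6 had from 3870 to 12049 spliced bases, the most in LOC110260391. LOC110260391 overlapped LOC110260390, which ran on the opposite strand. The third gap, between ACVR2A and LOC110257199 (chr15:4259057-7496597, 3237541 bp), held 7, with LOC106506175 at 16507 spliced bases and LOC102164639 at 48 samples, the highest support in the 3 gaps.

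**Figure D5:**
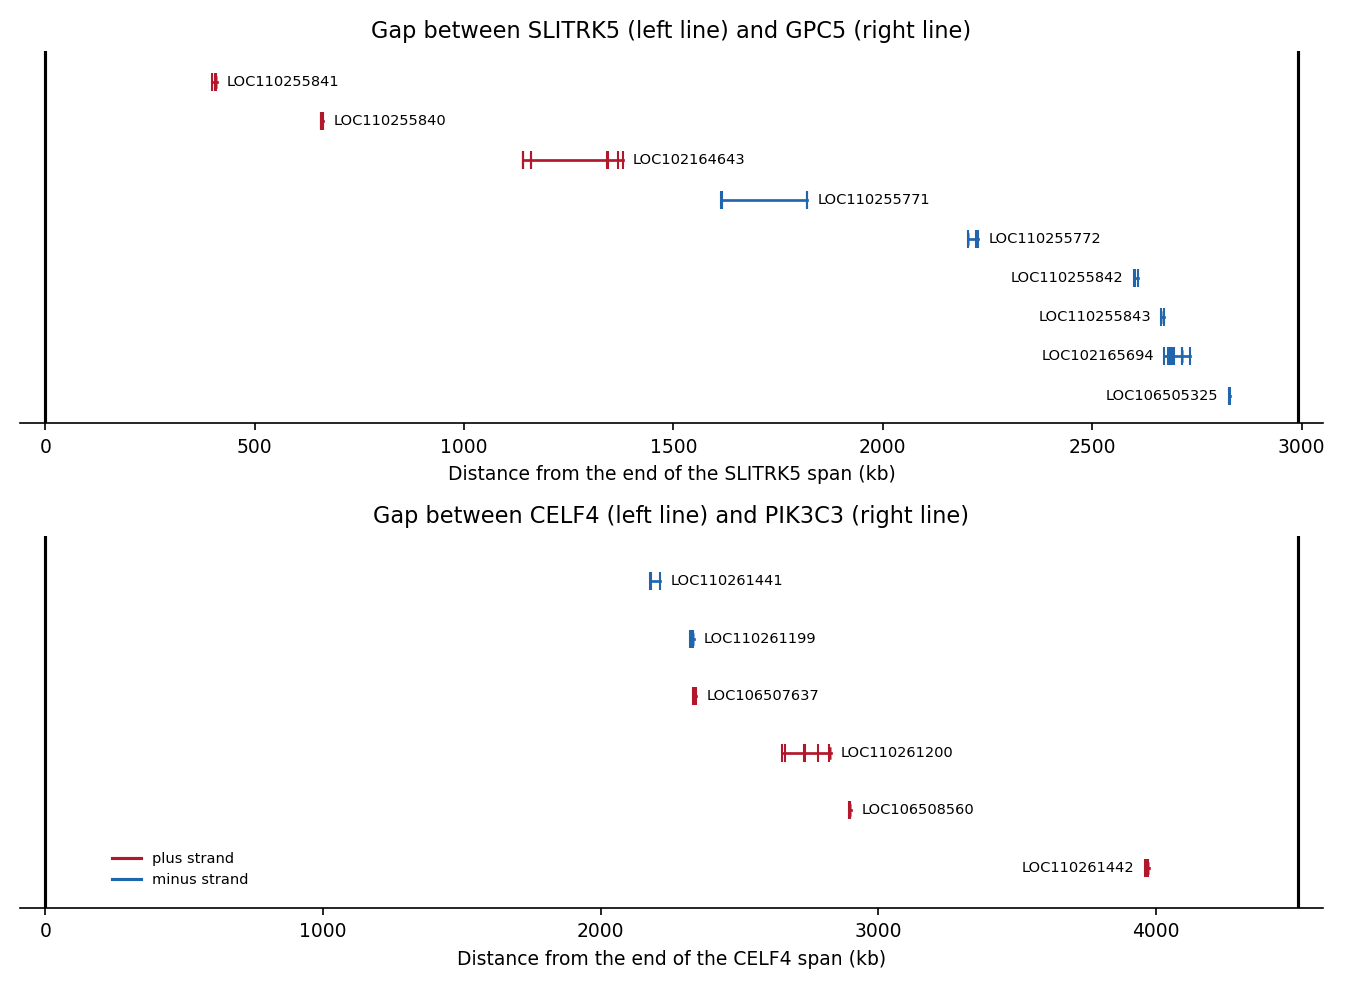
Far lncRNAs in the gaps SLITRK5 to GPC5 and CELF4 to PIK3C3, drawn to scale from the end of the left coding gene (horizontal axes, kb), with a line for each gene span and a tick or block for each exon (red plus strand, blue minus strand). In the first gap 3 genes on the plus strand are followed by 6 on the minus strand, and in the second the nearest far lncRNA starts 2176903 bp after CELF4.

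The strands of the flanking coding genes are given beside those of long gaps in general. Of the 678 gaps with a far lncRNA, 20.9% had convergent, 28.3% divergent and 50.7% same-strand flanks, against 19.9%, 28.1% and 52.0% of all gaps over 100000 bp. Relative to the nearest coding gene, 642 far lncRNAs lay upstream and 604 downstream, and 635 (51.0%) were on its strand. The 4 arrangements were less even than these totals. Upstream on the opposite strand were 378 (30.3%) and downstream on the same strand 371 (29.8%), against 264 (21.2%) upstream on the same strand and 233 (18.7%) downstream on the opposite strand. In the first 2 arrangements the lncRNA points away from the start of the coding gene or runs on beyond its end in the same direction. The differences were not tested.

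The flanks were compared with 3 lists of coding genes. Families of adhesion, axon guidance, synaptic receptors and ion channels flanked 225 of 1246 far lncRNAs (18.1%). Counted by gene, they made up 98 of 1278 flanking genes (7.67%), against 78 of 2766 genes (2.82%) at long gaps without a far lncRNA and 1.49% of all coding genes. SLITRK1 and SLITRK5 flanked 10 far lncRNAs each, PCDH18 8, and CDH9, CSMD3, LRFN5 and TENM4 7 each. Families of developmental transcription factors flanked 177 (14.2%), with 83 flanking genes (6.49%), against 3.29% at long gaps without one and 1.71% of all coding genes. TOX3 and KLF6 flanked 8 each, ID2 and MYC 7 each, and SALL1 and BCL11A 6 each. Gaps with far lncRNAs were also the longer ones (590830 against 172394 bp), and the part of gap length in these shares was not tested.

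Genes of airway and gland biology flanked 29 far lncRNAs (2.33%), through 19 genes (1.49% of flanking genes, against 0.651% at long gaps without a far lncRNA and 0.430% of all coding genes). The list held 89 coding genes, and 9 of the 19 also belonged to the developmental list. For 15 of the 29 the airway gene was the nearest coding gene. The distance had a median of 165.5 kb and ranged from 51.0 kb to 733.3 kb, and 15 lay upstream of the airway gene and 14 downstream. Their models had a median of 3 exons, 1343 spliced bases and 7 RNA-seq samples (2 to 17, stated for 27). A poly(A) signal was found in 7 of the 29 and a CpG-rich promoter in 0. Over all far lncRNAs the shares were 23.0% and 4.03%, and with 29 genes the counts were not tested against them.

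Transcription factors of epithelial identity come first. SOX2, which marks proximal airway epithelium, was followed downstream by LOC102159599 (chr13:119724228-119772526), 54685 bp away on the same strand with 7561 spliced bases, and by LOC110256235, 623130 bp away with 521. SOX9, a factor of cartilage and gland buds, had 3 upstream. LOC102165993 lay 66997 bp away with 505 spliced bases, LOC102165790 88828 bp away with 7 exons and 6 isoforms, and LOC110255978 535479 bp away. SOX4, of the same family, had LOC100512907 (50969 bp, 7 exons, 6684 bases) and LOC110261655 downstream and LOC102160563 (211770 bp) upstream. LOC110256550 lay 120039 bp upstream of TP63, the basal cell factor, with 728 spliced bases, and LOC110260452 lay 53921 bp upstream of GRHL2, a factor of epithelial junctions, with 751. LOC110256027 lay 701341 bp upstream of KLF4, a factor of epithelial differentiation. Another coding gene was nearer to some of these lncRNAs. ATP11B lay 432963 bp from LOC110256235, CDKAL1 56525 bp from LOC102160563 and PRL 155223 bp from LOC110261655. TPRG1 lay 90552 bp from LOC110256550 and ACTL7B 514320 bp from LOC110256027.

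Factors of mesenchymal and other airway cells also had far lncRNAs beside them. FOXF1, a factor of lung mesenchyme, had LOC106510455 244572 bp upstream with 5 exons, 4307 spliced bases and 16 samples. RUNX1, a factor of blood and epithelial cells, had 3 upstream on the opposite strand, LOC106505851 (182925 bp), LOC106505853 (655673 bp) and LOC110256478 (733300 bp, 251 spliced bases). IRX2, a homeobox factor, had LOC106506581 (130419 bp) and LOC110257297 (522037 bp). LOC102167790 lay 122542 bp from FOXP1, a forkhead factor, LOC110256560 118137 bp from HES1, the Notch effector, and LOC110260459 165524 bp from CHD7, a chromatin remodeller. Here too another coding gene was often nearer. IRF8 lay 188879 bp from LOC106510455, and SETD4 268101 bp from LOC106505853 and 183022 bp from LOC110256478. IRX4 lay 91670 bp from LOC110257297, MDFIC2 82700 bp from LOC102167790 and CLVS1 147814 bp from LOC110260459.

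Signalling genes and transporters made up the rest. Among secreted ligands, BMP4 had LOC110262205 51322 bp downstream with 4 exons and 1033 spliced bases, SHH had LOC110257610 165953 bp upstream with 1040, and WNT5A had LOC106505618 (165554 bp, 4086 bases, 17 samples, the most of the 29) and LOC106505619 (197440 bp, 8 exons). SMAD3, which carries TGF-beta signals to the nucleus, had LOC106509074 147074 bp upstream. SMAD6 lay nearer to LOC106509074, at 93137 bp. CACNA2D3 lay nearer than WNT5A to LOC106505618 (128114 bp) and LOC106505619 (79446 bp). CHRM3, the muscarinic receptor through which acetylcholine drives gland secretion, had LOC106505993 190175 bp upstream with 4786 spliced bases. SLC4A4, a sodium bicarbonate cotransporter, had LOC106507787 (chr8:68234977-68260859) 57763 bp downstream with 7036 spliced bases, and 50.2% of its exon bases were soft-masked. Nearness in the annotation says nothing about expression in glands, which was not analysed here.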

How the data were processed

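SMG libraries of 4 WT and 4 CFTR-/- newborn pigs (1 per animal per the labels) were made by the authors with 10x 3′ chemistry. The deposited file, 1 annotation for all libraries, gives positions on Sscrofa11.1 that start at 1. The authors edited a RefSeq annotation and used the result with Cell Ranger 3.0.2 (version from the submitters' processing notes). The RefSeq annotation compared with it here was NCBI Annotation Release 106. Far lncRNAs, gene lists and measures were chosen with earlier results of these data known. Exon number and isoforms (distinct exon chains) were counted over the transcripts of a gene, spliced length and reading frames on the longest, and GC and soft-masking on the union of exons. Sequence came from the RefSeq genome of the same build. Flanks were the nearest coding spans. Named by rule were 95 genes: the 10 farthest, 5 extremes of each measure, 3 on each side of the limit, gene symbols, microRNA overlaps, airway flanks and the 3 fullest gaps. Of the airway flanks, 1 gene is not reported here by name. No test was run. The measures passed 18 of 18 checks on simulated gene models. Software was pysam 0.24.0, numpy 2.4.6, matplotlib 3.10.9 and scipy 1.17.1 under Python 3.11.15.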

Additional observations from a re-analysis of the deposited data

How the results depend on the processing

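Of 29 alternatives over 15 results, 19 stayed within the 95% binomial interval of the main share or median, or within 1.5 times a count, and 10 moved beyond it. The interval served only as a yardstick. It treats genes as independent, which they are not, and the alternatives largely reuse the same genes, so staying within it is no test. The poly(A) window upstream, a control, is counted among the 10. The number of far lncRNAs was 1843 at a limit of 25 kb, 905 at 100 kb and 1195 with pseudogenes treated like coding genes. The median spliced length was 1647 as a mean over transcripts. The share with another far lncRNA in the gap was 64.0% with pseudogenes as bounds. The share with a poly(A) signal was 18.9% in the last 30 bases, 17.8% for AATAAA alone and 7.97% in the window upstream, and that with A-rich sequence was 2.43% for 6 A in a row. CpG-rich promoters came to 9.13% in the window of 250 bases before to 50 after the start. Counting the nearest coding gene alone, the airway list flanked 1.20%, the developmental list 7.46% and the adhesion and synapse list 9.15%. Leaving out the 65 genes with copies, chosen after seeing the data, gave a median of 1783 spliced bases and 3 exons. No paired analysis was possible because 1 annotation served all 8 libraries, and for the same reason no replicate could be left out. The models set what could be seen: a lncRNA without an entry, or with a 3′ end placed short, was not counted, and coding genes missed by the annotation could bring some far lncRNAs under the limit.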
